A study of Homo sapiens with 4 samples.

Results

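The miRNAs described here were grouped as bypassing Drosha, the nuclear enzyme that crops most miRNA hairpins out of their primary transcripts. Whether they bypass it in these cells was not tested. They were chosen by name, as 9 of the 2656 mature miRNA rows counted in the series: miR-320a-3p, miR-320b, miR-320c and miR-320d, miR-484, and both arms of the mirtrons miR-877 and miR-1226. Small RNA was sequenced from HEK293T cells, a human embryonic kidney line with the SV40 large T antigen, that held a landing pad, an engineered genomic site for inserting a transgene. In one group the pad carried the CAG promoter, a synthetic element with cytomegalovirus and chicken beta-actin sequence, and in the other the PGK promoter, from the phosphoglycerate kinase gene. Each group had 2 libraries, from lines derived from single cells, and the series asked which miRNAs differ between them. The sources used here do not say how many lines there were or whether replicates were separate cultures, so p-values cover only the spread between these libraries, and an effect of the promoter cannot be told apart from a difference between clones. In a bulk library, likewise, fewer cells making a miRNA and less of it per cell cannot be told apart.

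In the usual pathway Drosha releases a hairpin in the nucleus and Dicer cuts it to a short duplex in the cytoplasm. A mirtron is a short intron that folds into a hairpin once it is spliced and debranched, so the spliceosome sets its ends in place of Drosha. A capped hairpin begins at a transcription start site, so its ends are set by initiation and termination of transcription. In mouse cells miR-320 and miR-484 are still made without the Drosha partner Dgcr8, and mouse pre-miR-320 carries a cap. All of these hairpins still need Dicer.

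The mature sequences (RefSeq, GRCh38.p14) show what ties these miRNAs together and what sets them apart. The part of RefSeq's table used here matched 8 of the 9 miRNAs. miR-320a-3p is named only, which does not mean that RefSeq lacks it. Capitals mark the seed, bases 2 to 8 from the 5′ end, which does most of the pairing with a target. miR-320e and miR-4429 are shown for comparison.
hsa-miR-320b: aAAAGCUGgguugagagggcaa
hsa-miR-320c: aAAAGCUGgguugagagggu
hsa-miR-320d: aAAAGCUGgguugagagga
hsa-miR-4429: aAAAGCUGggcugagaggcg
hsa-miR-320e: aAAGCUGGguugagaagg
hsa-miR-484: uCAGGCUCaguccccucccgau
hsa-miR-877-5p: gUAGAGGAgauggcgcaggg
hsa-miR-877-3p: uCCUCUUCucccuccucccag
hsa-miR-1226-5p: gUGAGGGCaugcaggccuggaugggg
hsa-miR-1226-3p: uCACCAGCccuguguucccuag

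miR-320b, miR-320c, miR-320d and miR-4429 shared the seed AAAGCUG, whereas miR-484 and each mirtron arm had a seed of their own within this set. miR-320e has its seed in another register, AAGCUGG. miR-320b and miR-320c were identical over their first 19 bases and miR-320d matched both over its first 18 bases. No source used here states how reads too short to reach the differing bases were shared among these rows, so the split between them is uncertain.

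The mirtron arms carried the marks of splice sites. miR-877-5p and miR-1226-5p began with gu, the start of an intron, and miR-877-3p and miR-1226-3p ended with ag, its end. Among the 686 tested miRNAs with a sequence, 8.60% began with G and 41.8% with U. GC content was 65.0% in miR-877-5p, 69.2% in miR-1226-5p and 63.6% in miR-484, against 50.0% in miR-320b and a median of 50.0% over those 686.

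The annotation placed the mirtrons exactly between 2 exons. MIR877 (GRCh38, chr6:30584332-30584417, plus strand) filled an 86-base intron of ABCF1, a gene of translation initiation, with 0 bases between hairpin and exon on either side. MIR1226 (chr3:47849555-47849629, plus strand) likewise filled a 75-base intron of DHX30, which encodes an RNA helicase. Among 1562 hairpins placed on the annotation, all outside chromosome 8, 23 filled an intron in this way. MIR484 (chr16:15643294-15643372, plus strand) lay in the untranslated first exon of NDE1, a gene of dynein regulation, and began 27 bases after the annotated start of that transcript. The hairpin of miR-320a-3p was not among those placed. Of the hairpins of miR-320b, miR-320c and miR-320d, MIR320B2 lay deep in an intron of NVL on the same strand. MIR320C1 and MIR320C2 lay on the strand opposite to ABHD3 and OSBPL1A, and MIR320B1, MIR320D1 and MIR320D2 overlapped no other annotated gene. miR-320b, miR-320c and miR-320d each have 2 hairpins that yield the same mature sequence, so their counts pool both loci. The deposited tables hold no coordinates, and these positions were looked up by name.

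Totals were 13780279 and 2845945 counts in CAG replicates 1 and 2, and 7927615 and 7331437 counts in PGK replicates 1 and 2. Levels are given as CPM, in which each count is divided by the size of its library after TMM adjustment, and 1 read was worth between 0.0777 and 0.324 CPM. Each row was tested with edgeR's quasi-likelihood test, p-values adjusted by Benjamini-Hochberg over all 773 miRNAs that passed the low-count filter, which all 9 rows did, and a threshold of 0.05. miR-10a-5p and miR-92a-3p, abundant in HEK293 lines, stood at 71061 CPM or more in every library. The same list held miR-10b-5p at 23860 CPM or more, miR-196b-5p at 4169 CPM or more and miR-196a-5p at 1445 CPM or more. Of 8 listed markers of other cells (blood miR-142-3p, miR-142-5p, miR-451a and miR-223-3p, liver miR-122-5p, muscle miR-206 and miR-133b, neuronal miR-124-3p), none exceeded 2.65 CPM in any library and miR-223-3p had 0 reads. Muscle- and neuron-associated miRNAs outside that list were not all low: hsa-miR-1-3p stood at 16.5 and 15.6 CPM in CAG replicates 1 and 2, and at 104 and 93.98 CPM in PGK replicates 1 and 2. hsa-miR-9-5p stood at 2060 and 1767 CPM in CAG replicates 1 and 2, and at 4088 and 3891 CPM in PGK replicates 1 and 2; both were picked after their values were seen.

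None of the 9 rows passed the test, against 14.2% of all 773 miRNAs (8.15% higher and 6.08% lower in CAG cells). None had an unadjusted p under 0.05 either, which 26.9% of all miRNAs had, and neither DESeq2 nor limma-voom called any. Their log2 fold changes (CAG minus PGK) ran from -0.50 to 0.53 with a median of -0.08 (4 above 0 and 5 below), beside a median of -0.0042 over all miRNAs. In 2 of the 9 the CPM of the groups did not overlap, against 57.2% of all tested miRNAs: miR-1226-5p was above in CAG cells, as were 29.8% of all, and miR-320c was below, as were 27.4% of all. For miR-320c the groups overlapped as shares of all counts, without TMM adjustment. Together the 9 rows held 0.353% and 0.395% of counts in the CAG libraries and 0.363% and 0.384% in the PGK libraries. The lack of calls does not show equal levels, and the 95% intervals below give the changes the data allow.

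**Figure D1:**
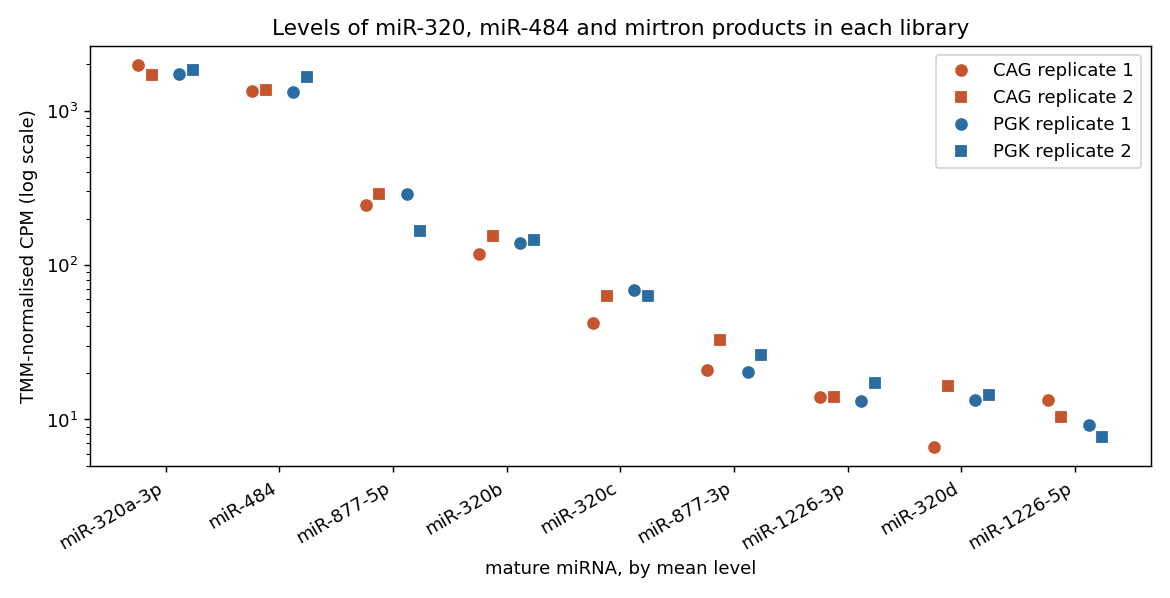
Levels (TMM-normalised CPM, log axis) of the 9 miRNAs in each of the 4 libraries, CAG libraries left of PGK libraries, ordered by mean level. miR-320a-3p and miR-484 lie at 1317 CPM or above everywhere, the other 7 at 287 CPM or below, and miR-320d is lowest in CAG replicate 1 at 6.60 CPM.

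The levels fell into clear steps. By mean over the 4 libraries the order was miR-320a-3p (1812 CPM), miR-484 (1418 CPM), miR-877-5p (246 CPM), miR-320b (139 CPM), miR-320c (59.4 CPM), miR-877-3p (25.01 CPM), miR-1226-3p (14.6 CPM), miR-320d (12.8 CPM) and miR-1226-5p (10.1 CPM). miR-320a-3p ranked 55 and miR-484 ranked 65 among all rows, and miR-1226-5p ranked 434. Down to miR-1226-3p, each miRNA stood above the next in all libraries, without overlap. The ranges of miR-1226-3p and miR-320d overlapped, as did those of miR-320d and miR-1226-5p. These are levels of different sequences, of 19 to 26 bases where a sequence was at hand, and adapter ligation during library making favours some sequences over others, so the steps order reads rather than molecules.

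miR-320a-3p was the most abundant and among the steadiest. It stood at 1973 and 1696 CPM in CAG replicates 1 and 2, and at 1737 and 1840 CPM in PGK replicates 1 and 2. On this TMM-adjusted scale the PGK values lay between the CAG values. As a share of all counts, without TMM adjustment, the order differed. It was 0.1844% and 0.1839% in CAG replicates 1 and 2, and 0.1751% and 0.1800% in PGK replicates 1 and 2. Both CAG shares lay above both PGK shares. The mean was 1835 ± 196 CPM in the CAG libraries and 1789 ± 72.7 CPM in the PGK libraries (SD, n = 2 each), a log2 fold change of 0.04 (SE 0.17, edgeR adjusted p = 0.899). The 95% interval ran from 0.792-fold to 1.33-fold. Over the 4 libraries the SD of its log2 CPM was 0.0972, and 3.75% of the 773 tested miRNAs had a smaller one.

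The other miR-320 rows were lower in CAG replicate 1 than in any other library. miR-320b stood at 118 and 154 CPM in CAG replicates 1 and 2, and at 140 and 146 CPM in PGK replicates 1 and 2. Its log2 fold change was -0.08 (SE 0.20, edgeR adjusted p = 0.826), and both CAG values lay outside the PGK range, on opposite sides. The 95% interval ran from 0.699-fold to 1.28-fold.

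miR-320c was at 42.2 and 62.9 CPM in CAG replicates 1 and 2, and at 69.2 and 63.2 CPM in PGK replicates 1 and 2. The CAG values lay below both PGK values, but the upper of them by less than 1 CPM. As shares of all counts, without TMM adjustment, the groups overlapped. These were 0.00394% and 0.00682% in CAG replicates 1 and 2, and 0.00698% and 0.00618% in PGK replicates 1 and 2. The log2 fold change was -0.37 (SE 0.23, edgeR adjusted p = 0.326), and the 95% interval ran from 0.542-fold to 1.11-fold. Without CAG replicate 1 it was -0.07, and without CAG replicate 2 it was -0.65 (edgeR adjusted p = 0.0646).

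miR-320d, at 19 bases the shortest of the 8 miRNAs with a sequence, varied most. It stood at 6.60 and 16.5 CPM in CAG replicates 1 and 2, and at 13.4 and 14.5 CPM in PGK replicates 1 and 2. CAG replicate 1 was lowest and CAG replicate 2 highest, with the PGK libraries between them. The log2 fold change of -0.50 (SE 0.39, edgeR adjusted p = 0.450) became 0.25 without CAG replicate 1. Without CAG replicate 2 it was -1.07, and miR-320d was then called lower (edgeR adjusted p = 0.0232), the single call among the 9 rows in any alternative.

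Within the AAAGCUG family these rows were minor. The deposited family count matched the sum of miR-320a-3p, miR-320b, miR-320c, miR-320d and miR-4429 within 1 read in every library. miR-320a-3p supplied 92.2% of it in CAG replicate 1 (95% exact binomial interval 91.8% to 92.5%) and 87.9% (87.0% to 88.7%) in CAG replicate 2, and 88.6% (88.1% to 89.1%) and 89.1% (88.6% to 89.6%) in PGK replicates 1 and 2. The PGK shares lay between the CAG shares.

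The remaining shares followed the same split. miR-320b took 5.52% and 7.96% of the family in CAG replicates 1 and 2, and 7.12% and 7.07% in PGK replicates 1 and 2. miR-320c took 1.97% and 3.26% in CAG replicates 1 and 2, and 3.53% and 3.06% in PGK replicates 1 and 2. miR-320d took 0.308% (0.246% to 0.381%) and 0.856% (0.638% to 1.12%) in CAG replicates 1 and 2, and 0.683% (0.560% to 0.825%) and 0.703% (0.574% to 0.851%) in PGK replicates 1 and 2. For each of the 3 the share in CAG replicate 1 was the lowest of the 4 libraries. The interval there did not meet those of the other libraries, for miR-320b and miR-320c as for miR-320d. Such intervals reflect counting error within a library alone, and are too narrow even for that if PCR copies of a molecule were counted as separate reads. No source used here says whether they were.

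For the family as a whole the PGK libraries lay between the CAG libraries. It stood at 2136 and 1886 CPM in CAG replicates 1 and 2, and at 1983 and 2092 CPM in PGK replicates 1 and 2. The log2 fold change was -0.02 (SE 0.16, edgeR adjusted p = 0.957), with a 95% interval from 0.769-fold to 1.27-fold. None of the 6 seed families that hold a sequence of the set was called, against 10.4% of 642 families tested, 5.76% higher and 4.67% lower in CAG cells (none at an unadjusted p under 0.05, against 26.9%). miR-4429 had 8 and 3 reads in CAG replicates 1 and 2, and 4 and 4 reads in PGK replicates 1 and 2, too few to be tested. miR-320e had 10 and 4 reads in CAG replicates 1 and 2, and 8 and 6 reads in PGK replicates 1 and 2. The opposite strand of the leading hairpin, miR-320a-5p, had 4 and 3 reads in CAG replicates 1 and 2, and 6 and 1 reads in PGK replicates 1 and 2.

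**Figure D2:**
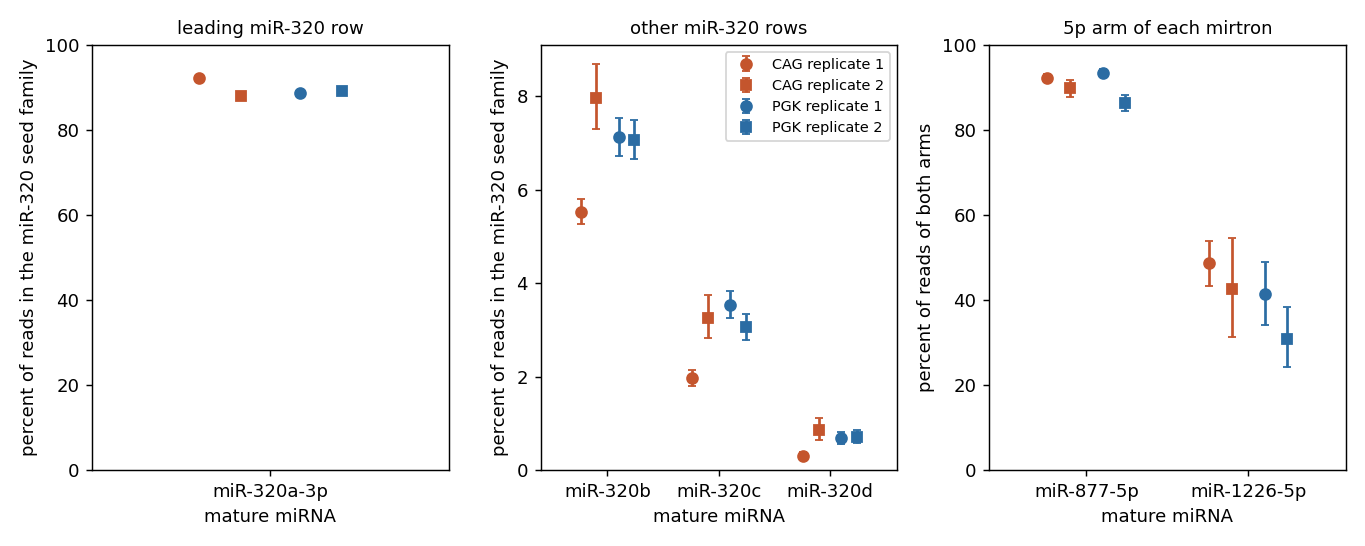
Percent of reads per library, with 95% exact binomial intervals as bars and CAG libraries left of PGK libraries in each column: shares of the AAAGCUG family in the left and middle panels, and of the 5p arm among both arms in the right panel. miR-320b, miR-320c and miR-320d are lowest in CAG replicate 1, and the 5p arm makes up 86.4% or more of miR-877 reads but 48.6% or less of miR-1226 reads.

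Short miRNAs as a class tended to be low in CAG replicate 1. The length classes below include the rows of the set: miR-320d is in the shortest, and miR-320c and miR-877-5p are among those of 20 bases. Over 21 tested miRNAs with an annotated length of 19 bases or less and at least 5 CPM, the median log2 ratio of CAG replicate 1 over CAG replicate 2 was -0.80. It was -0.19 over 16 miRNAs of 20 bases, -0.02 over 73 of 21 bases, 0.0092 over 260 of 22 bases and 0.26 over 97 of 23 bases or more. Between the PGK replicates the same medians ran from -0.14 for the shortest class to 0.04 for the longest. Single miRNAs, picked after their values were seen, departed from the CAG medians. miR-548f-3p and miR-1224-5p, of 19 bases, stood at 0.61 and 1.18. miR-4454 of 20 bases and miR-5100 of 22 bases stood at -1.43 and -1.01. Whether length or another trait that the short rows share goes with the medians was not tested.

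miR-320d stood at -1.32 in this ratio between the CAG replicates, miR-320c at -0.58 and miR-877-5p, also of 20 bases, at -0.24. miR-877-3p of 21 bases stood at -0.65 and miR-320b of 22 bases at -0.38, both well below the medians of their length classes, and miR-1226-5p, with 26 bases the longest of the set, at 0.36. The absolute difference of miR-320d was larger than that of 98.3% of 526 tested miRNAs with at least 5 CPM and reads in every library. Set against the PGK mean, the shortest class had a median log2 ratio of -0.59 in CAG replicate 1 and 0.20 in CAG replicate 2. The part of length in the values of miR-320c and miR-320d was not tested.

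**Figure D3:**
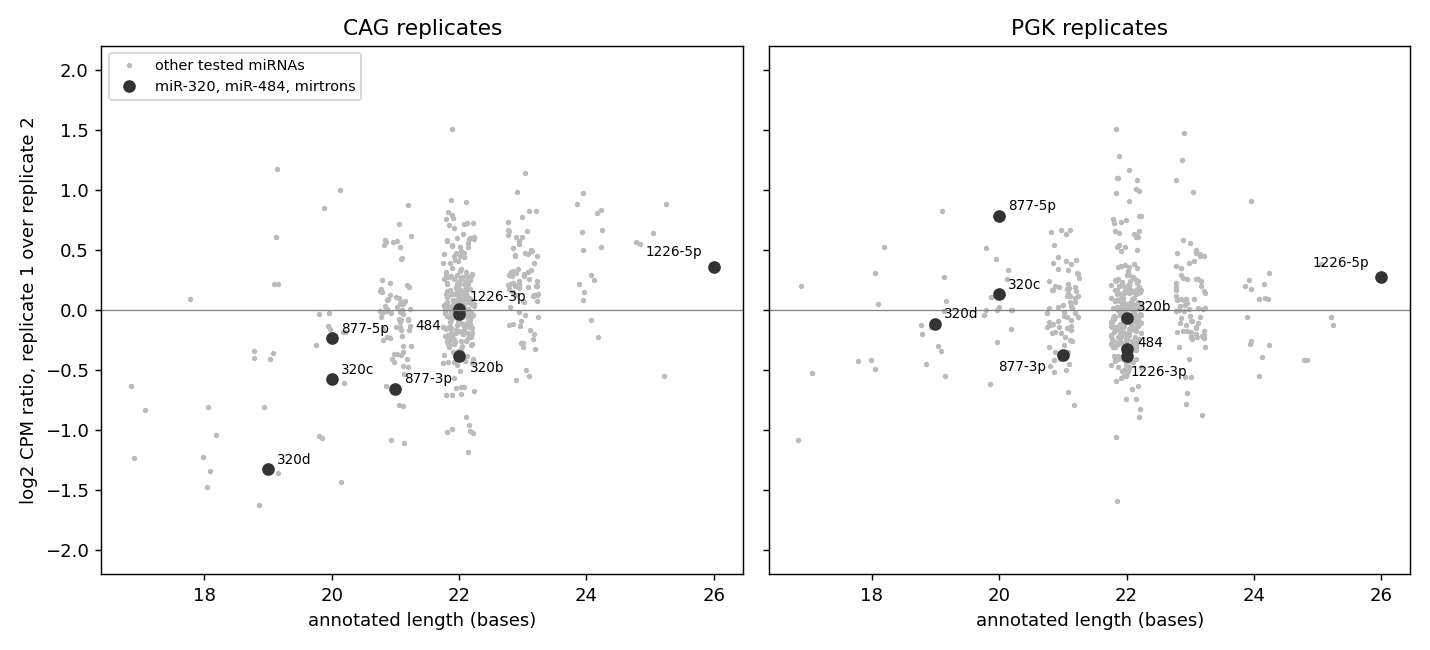
Log2 ratio of CPM between replicates 1 and 2 (y axis) against the annotated length of the mature miRNA in bases (x axis; grey points are spread sideways within each length) for tested miRNAs with a sequence, at least 5 CPM and reads in every library, in CAG cells at left and PGK cells at right; black points are the 8 miRNAs of the set with a sequence. In CAG cells the median is -0.80 at 19 bases or less, where miR-320d lies at -1.32, and 0.26 at 23 bases or more, with single miRNAs on both sides of 0 in each class, while the PGK medians stay between -0.14 and 0.04.

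miR-484, from the first exon of NDE1, has been reported in mouse heart cells to repress Fis1, a gene of mitochondrial fission. It stood at 1340 and 1368 CPM in CAG replicates 1 and 2, and at 1317 and 1645 CPM in PGK replicates 1 and 2. PGK replicate 2 was the highest, and the groups overlapped because PGK replicate 1 was the lowest. The mean was 1354 ± 20.2 CPM in the CAG libraries and 1481 ± 233 CPM in the PGK libraries (SD, n = 2 each), a log2 fold change of -0.13 (SE 0.18, edgeR adjusted p = 0.685). The 95% interval ran from 0.697-fold to 1.20-fold. miR-3155a, which has the same seed CAGGCUC and is counted in the same deposited family, added 51 and 23 reads in CAG replicates 1 and 2, and 25 and 28 reads in PGK replicates 1 and 2. The family was thus nearly all miR-484, and its log2 fold change was -0.16 (SE 0.17, edgeR adjusted p = 0.591).

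miR-877-5p, the main product of the ABCF1 intron, had an odd library in the PGK group. It stood at 244 and 287 CPM in CAG replicates 1 and 2, and at 287 and 166 CPM in PGK replicates 1 and 2. The groups overlapped, and PGK replicate 2 was far below the other libraries. The log2 fold change was 0.23 (SE 0.26, edgeR adjusted p = 0.614) and the 95% interval ran from 0.785-fold to 1.74-fold. It was -0.12 without PGK replicate 2 and 0.65 without PGK replicate 1 (edgeR adjusted p = 0.226). The log2 difference of 0.79 between the PGK replicates was larger than that of 95.1% of 526 miRNAs.

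The other arm did not follow it. miR-877-3p was at 20.8 and 32.7 CPM in CAG replicates 1 and 2, and at 20.3 and 26.2 CPM in PGK replicates 1 and 2. The groups overlapped, and PGK replicate 2 was not the lowest here. The log2 fold change was 0.14 (SE 0.28, edgeR adjusted p = 0.790), and the 95% interval ran from 0.717-fold to 1.70-fold.

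The 5p arm therefore dominated miR-877 to a varying degree. It made up 92.1% (95% exact interval 91.2% to 93.0%) and 89.8% (87.7% to 91.6%) of the reads of both arms in CAG replicates 1 and 2, and 93.4% (92.4% to 94.4%) and 86.4% (84.5% to 88.2%) in PGK replicates 1 and 2. Both CAG shares lay between the PGK shares. The group means differed by 1.06 percentage points (exact permutation test, two-sided p = 1.00; with 2 libraries against 2 the smallest possible p is 0.333).

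miR-1226, from the DHX30 intron, was less abundant than miR-877 in both arms and more evenly split between them. miR-1226-5p stood at 13.3 and 10.4 CPM in CAG replicates 1 and 2, and at 9.26 and 7.67 CPM in PGK replicates 1 and 2. Both CAG values lay above both PGK values. The mean was 11.8 ± 2.06 CPM in the CAG libraries and 8.46 ± 1.12 CPM in the PGK libraries (SD, n = 2 each), a log2 fold change of 0.53 (SE 0.28), the largest of the 9 rows in either direction. It did not pass the test (edgeR adjusted p = 0.254, unadjusted p = 0.0879), and the 95% interval ran from 0.937-fold to 2.23-fold. It rested on 171 and 32 reads in CAG replicates 1 and 2, and on 74 and 55 reads in PGK replicates 1 and 2.

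miR-1226-3p stood at 14.1 and 13.9 CPM in CAG replicates 1 and 2, and at 13.1 and 17.2 CPM in PGK replicates 1 and 2. The CAG libraries lay within the PGK range. The log2 fold change was -0.11 (SE 0.27, edgeR adjusted p = 0.826) with a 95% interval from 0.616-fold to 1.40-fold.

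The 5p share of miR-1226 was higher in both CAG libraries. It was 48.6% (95% exact interval 43.2% to 53.9%) and 42.7% (31.3% to 54.6%) in CAG replicates 1 and 2, and 41.3% (34.0% to 48.9%) and 30.9% (24.2% to 38.2%) in PGK replicates 1 and 2. The means of 45.6% in CAG and 36.1% in PGK cells differed by 9.50 percentage points (exact permutation test, two-sided p = 0.333, the smallest possible), and the intervals of CAG replicate 2 and PGK replicate 1 overlapped widely.

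**Figure D4:**
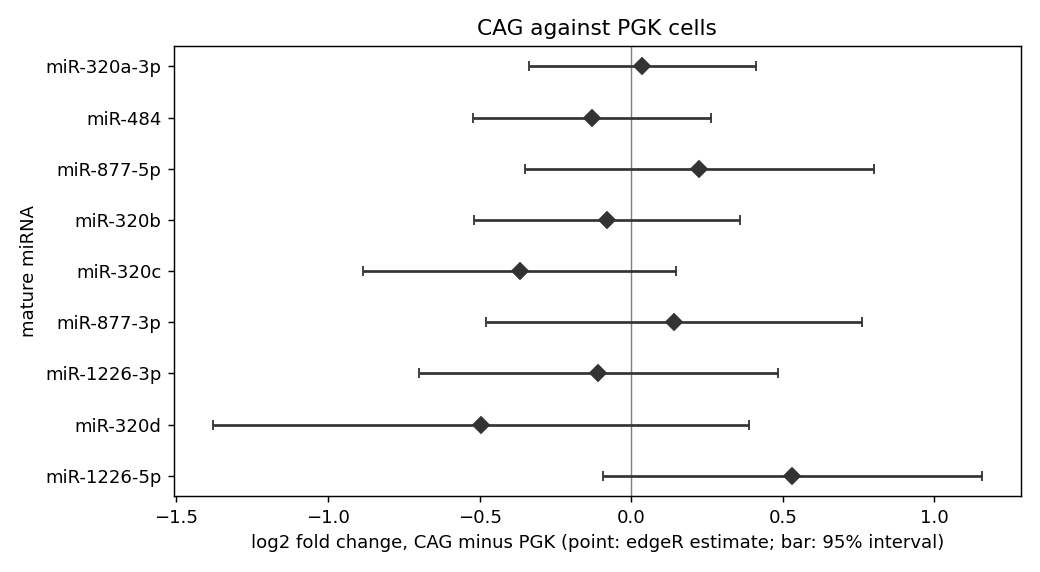
Log2 fold change, CAG minus PGK (x axis), of the 9 miRNAs with the edgeR estimate as a point and its 95% interval as a bar, ordered by mean level from the top. Every interval includes 0, and the estimates run from -0.50 for miR-320d to 0.53 for miR-1226-5p.

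The other mirtrons that were listed were scarce in these cells. A list of both arms of miR-1224, miR-1225, miR-1227, miR-1228, miR-1229, miR-1233, miR-1236, miR-1237 and miR-1238, mirtrons or mirtron candidates, had 18 rows, of which 11 had a read and 2 passed the filter on low counts. miR-1224-5p had 66 and 7 reads in CAG replicates 1 and 2, and 58 and 43 reads in PGK replicates 1 and 2, a log2 fold change of -0.61 (edgeR adjusted p = 0.299). miR-1229-3p had 21 and 8 reads in CAG replicates 1 and 2, and 23 and 15 reads in PGK replicates 1 and 2, a log2 fold change of -0.43 (edgeR adjusted p = 0.596). Neither was called, nor was either at an unadjusted p under 0.05. Of the listed rows that were not tested, the most abundant were miR-1227-3p with 6 and 3 reads in CAG replicates 1 and 2, and 11 and 8 reads in PGK replicates 1 and 2, and miR-1228-3p with 4 and 3 reads in CAG replicates 1 and 2, and 5 and 6 reads in PGK replicates 1 and 2.

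The annotation added further intron-filling hairpins. The 23 hairpins outside chromosome 8 that fill an intron correspond to 40 rows of the table, of which 27 had a read and 7 were tested. These 7 were the 4 mirtron arms of the set, miR-1224-5p, miR-1229-3p and miR-6807-5p, and none was called. miR-877-5p stood at 246 CPM on average, ahead of the other 6, of which miR-877-3p was the nearest at 25.01 CPM.

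Some miRNAs, not all of them abundant, had nearly the same pattern over the 4 libraries as the leading rows. Likeness was the distance between log2 CPM profiles centred on their mean, among 362 tested miRNAs with at least 20 CPM. Nearest to miR-320a-3p were miR-548b-5p, miR-191-5p and miR-17-5p (distances 0.0588 to 0.0768, beside a median of 0.483). Nearest to miR-484 were miR-107, miR-374b-5p and miR-95-3p (0.0584 to 0.108, beside a median of 0.539). Nearest to miR-877-5p were miR-197-3p, miR-195-5p and miR-7-1-3p (0.144 to 0.263, beside a median of 0.832). miR-197-3p stood at 2683 and 3130 CPM in CAG replicates 1 and 2, and at 3483 and 1775 CPM in PGK replicates 1 and 2. It too was lowest in PGK replicate 2, but it was picked for its likeness over these same libraries. The small distances follow from that choice and test nothing. With 4 libraries, many miRNAs can share a pattern.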

How the data were processed

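Per the labels' protocols, RNA came from Trizol extracts of plated cells and the NEBNext Small RNA Library Prep Kit was used. The authors deposited whole-number counts per mature miRNA and per 7-base seed family, 1 column per library. No source used here names the trimming, aligner, counting rule or genome build.

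The members and lists were chosen with earlier results of these data known. Counts were analysed in R 4.3.3 with edgeR 4.0.16 (newer quasi-likelihood method, robust; TMM factors 0.935 to 1.08; filter with minimum count 10 and total 15). The model held the group alone. SE is the log2 fold change over the root of F, and intervals use the test's degrees of freedom. Replicates of a pair differed beyond counting noise (chi-square per degree of freedom 125 in CAG and 66.1 in PGK), so each library counted as 1 sample. Alternatives used DESeq2 1.42.0 and limma 3.58.1; the older quasi-likelihood method was added after seeing the data. Figures used matplotlib 3.10.9. The fit was also run on counts simulated with its own fitted spread and with larger changes than any of the 9 rows had. That run does not test changes as small as theirs. Named miRNAs are the 9 rows, up to 4 of the other mirtron list, the other miR-320 rows, and the 3 most alike to each of the 3 most abundant rows; miR-4429, miR-3155a and miR-6807-5p follow from shared seeds or annotation. Intron-filling hairpins, length classes and the single miRNAs named beside those classes were chosen after values were seen. Hairpins came from RefSeq (GRCh38.p14) and exons from GENCODE 29 (GRCh38); the authors' build may differ.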

Additional observations from a re-analysis of the deposited data

How the results depend on the processing

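Across 16 settings no row of the set was called higher in CAG cells, and the number called lower was 0 in all but 1: with each library left out in turn it ran from 0 to 1, the call being miR-320d without CAG replicate 2. No listed mirtron and no seed family of the set was called under any setting tried for it. miR-320c and miR-1226-5p kept the sign of their log2 fold change in 15 of 15 alternatives (-0.65 to -0.07 and 0.29 to 0.65). As a log2 ratio of shares of all counts, however, miR-320c turned to 0.05 without CAG replicate 1. The other rows of the set changed sign in some alternative. miR-877-3p had a log2 fold change of -0.15 without CAG replicate 2. Over the alternatives miR-320a-3p ran from -0.07 to 0.15 and miR-320b from -0.27 to 0.11. miR-484 ran from -0.30 to 0.03 and miR-1226-3p from -0.31 to 0.08. The count over all miRNAs, 63 higher and 47 lower, was less stable. With the replicate number as a block it was 40 higher and 23 lower, at a threshold of 0.01 it was 32 and 17, and a filter of 10 CPM in 2 libraries gave 39 higher. With single libraries left out it ran from 10 to 84 higher and from 6 to 78 lower; without PGK replicate 1 it was 12 and 7, and without PGK replicate 2 it was 10 and 6. In those fits the lone library is assumed to vary like the other pair. The labels do not say whether the replicate numbers pair the samples. The deviations of replicate 1 from its group mean had a correlation across 436 miRNAs of 0.04 between CAG and PGK. Such a value cannot settle whether samples were handled in pairs. The block called none of the 9 rows. Depth limits miR-1226 most, with 32 reads of its 5p arm in CAG replicate 2, where a count of 0 would allow 3 reads.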
